A study of Mus musculus with 2 samples.

Results

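The nuclear genes of respiratory complex I and of its assembly were read in single islet cells of mice on 2 diets. Members are all genes of the deposited gene table whose symbol starts with Ndufa, Ndufab, Ndufaf, Ndufb, Ndufc, Ndufs or Ndufv and a number, without those marked as pseudogenes. The rule finds 45 of 27998 genes and uses no measured value. Of these, 36 encode subunits of complex I and 7 encode assembly factors (Ndufaf1 to Ndufaf7). The other 2, Ndufa4 and Ndufa4l2, carry the family name, but NDUFA4 is now placed with complex IV.

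Complex I, NADH:ubiquinone oxidoreductase, is the entry point of electrons from NADH into the respiratory chain. Its matrix arm oxidises NADH and passes the electrons along iron-sulfur clusters to ubiquinone, and its membrane arm pumps protons. Core subunits do the catalysis, accessory subunits surround them, and assembly factors help to build the enzyme and are absent from the finished one. The core of the membrane arm is encoded in mitochondrial DNA, so none of it is among the members. In beta cells, respiration fuelled by glucose raises ATP, which closes potassium channels and triggers insulin release. The roles given below were mostly worked out on the human and bovine enzyme.

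Islet cells came from wild-type C57BL/6J mice given a 60% high-fat diet (HFD, 5 mice) or regular chow (4 mice) for 6 weeks from weaning. Islets were picked by hand and cultured overnight before they were dispersed with trypsin, and RNA was counted as unique molecular identifiers (UMIs) with droplet chemistry that reads the 3' end. Each diet has 1 library pooled from its mice, and cells are not assigned to single mice. Diet and library cannot be told apart, no p-value can be given, and intervals cover counting error only. After filtering, the HFD library held 4188 cells and the chow library 6110.

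Cells were typed by the share of their UMIs that came from hormone genes. A beta cell had at least 20% from Ins1 and Ins2, an alpha cell at least 5% from Gcg, a delta cell at least 1% from Sst and a PP cell at least 15% from Ppy, taken in that order. There were 2953 HFD and 4369 chow beta cells, 376 and 743 alpha cells, 373 and 447 delta cells, and 154 and 197 PP cells. The median beta cell held 16696 UMIs in the HFD library and 14646 in the chow library, and the median alpha cell 10858 and 8369. Of 8 beta cell markers only Mafa, a transcription factor, was at 0 in alpha, delta and PP cells of both libraries. Summed counts are given as counts per 1000000 UMIs of a type (CPM). The 8 beta markers summed to 22111 CPM in HFD alpha cells and 31124 CPM in chow alpha cells. In delta cells they summed to 72678 and 86161 CPM, and in PP cells to 27067 and 36951 CPM. Delta cells carried 76869 CPM of 4 delta markers in the HFD library and 98917 CPM in the chow library, but also 153670 and 150470 CPM of 2 PP cell markers. In beta cells 4 ductal markers summed to 20.7 CPM in the HFD library and 86.3 CPM in the chow library, 6 alpha markers to 1082 and 1640 CPM, 6 macrophage markers to 46.2 and 28.9 CPM, and 6 mesenchymal markers to 6.81 and 1.47 CPM, with no marker of these lists at 0. The ductal marker Spp1 was also among the leading genes of a beta cell cluster with 0.745% of HFD and 19.4% of chow beta cells. The part of other cell types in the results was not tested.

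Promoter windows of 300 bases, with 250 before and 50 after the start of transcription, were matched to 39 of the 45 members in RefSeq (build GRCm38.p6). The letters GCGCA, any base and GCGC, a site of the type bound by the respiratory gene activator NRF1, were searched on both strands, as were the other motifs. They stood in 8 of 34 subunit windows (23.5%) and in 2 of 6 assembly factor windows, against 4.6% of 32851 windows of all genes. Ndufa5 has 2 windows that hold the same match, and by gene 7 of 32 subunits had one. The letters AAGATGGC, of the type bound by YY1, stood in 20.6% of subunit windows and 2.75% of all windows. CCGGAAG, the core of ETS factor sites, stood in 11.8% and 8.86%, CCAAT in 29.4% and 37.4%, and TATAAA in 14.7% and 13.6%. No subunit window had overlapping matches of different motifs. The stretches below show the match nearest to the start for each member with an NRF1-type match upstream of it, with the matched letters in capitals.
Ndufa8 (chr2:36049339-36049388, minus strand): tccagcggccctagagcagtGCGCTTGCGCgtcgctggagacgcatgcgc
Ndufs5 (chr4:123718255-123718304, minus strand): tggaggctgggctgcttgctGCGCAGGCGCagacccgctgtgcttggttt
Ndufa5 (chr6:24527691-24527736, minus strand): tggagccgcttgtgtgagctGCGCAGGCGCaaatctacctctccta
Ndufs6 (chr13:73328483-73328518, minus strand): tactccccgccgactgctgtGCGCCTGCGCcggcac
Ndufb4 (chr16:37654369-37654410, minus strand): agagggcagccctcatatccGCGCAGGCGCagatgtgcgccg
Ndufa11 (chr17:56717682-56717731, plus strand): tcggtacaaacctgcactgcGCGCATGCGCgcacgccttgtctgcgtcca
Ndufaf4 (chr4:24897950-24897999, plus strand): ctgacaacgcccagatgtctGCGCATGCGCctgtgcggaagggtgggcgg
These matches are letters in a window and no evidence of binding.

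Beta cells of the HFD library carried fewer complex I subunit UMIs than those of the chow library. The 36 subunits summed to 3945 CPM in HFD beta cells and 5495 CPM in chow beta cells. Of the 36, 32 were lower in the HFD library with 95% Poisson intervals that do not overlap, and 4 (Ndufs1, Ndufa3, Ndufa9 and Ndufa10) had higher CPM there. The median gene of beta cells had a log2 ratio of HFD over chow of 0.20 over 12242 genes with at least 50 summed counts, so ratios below are given relative to that median. On that scale 36 of 36 subunits lay below 0, as did 50% of all genes by construction and 74.1% of genes of at least 50 CPM on average, with a median of -0.79 and quartiles of -0.97 and -0.54. Ndufs1, Ndufa3, Ndufa9 and Ndufa10 lie above 0 under plain CPM, without hormone UMIs, or relative to genes of at least 50 CPM.

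Of the 36 subunits, 27 had a relative log2 ratio at or below -0.5, where 12.2% of all genes measured in beta cells did, and none was at or above 0.5, where 6.13% were. Abundant genes lay lower as a class: among genes of at least 50 CPM on average, 28.5% were at or below -0.5 and the median was -0.27. In the band of 50 to 100 CPM, 11 of 11 subunits were at or below -0.5, with a median of -0.91, against 25.6% of 699 genes with a median of -0.23. Between 100 and 200 CPM it was 9 of 11 subunits (median -0.87), against 36.3% of 281 genes (median -0.37). Between 200 and 500 CPM it was 4 of 8 (median -0.53), against 39.6% of 154 genes (median -0.41), and between 10 and 50 CPM 3 of 6 (median -0.48), against 11.6% of 4409 genes (median -0.031). The subunits of 200 to 500 CPM stood nearest to genes of their own level.

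**Figure D1:**
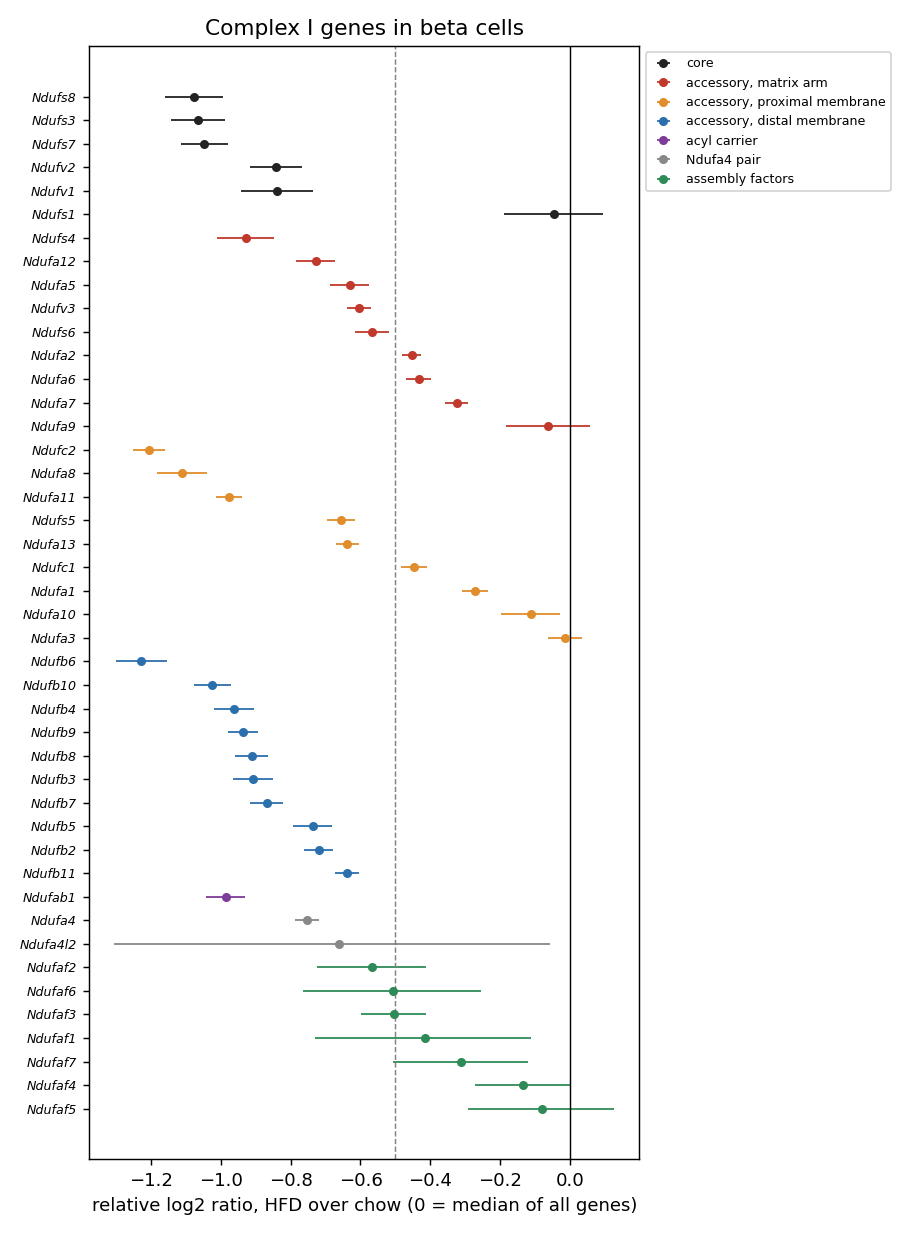
Relative log2 ratio of HFD over chow (horizontal axis, 0 is the median gene of beta cells) of the members described in beta cells, with 95% counting intervals as bars, members grouped by their place in the complex and a dashed line at -0.5. All points lie left of 0, between -1.23 for Ndufb6 and -0.015 for Ndufa3.

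The nuclear core subunits form the electron path of the matrix arm, and 5 of the 6 described here were at or below -0.5. Ndufv1 binds NADH and the flavin that takes up its electrons, and had 23.4 CPM in HFD beta cells and 36.5 CPM in chow beta cells (-0.84). Ndufv2, its iron-sulfur partner, had 44.5 CPM in HFD and 69.5 CPM in chow (-0.84). Both stood about equally low in the HFD library.

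Ndufs1, the largest core subunit and carrier of several iron-sulfur clusters, was the exception. It had 14.9 CPM in HFD beta cells and 13.5 CPM in chow beta cells, with overlapping intervals, and a relative ratio of -0.048 (95% interval -0.19 to 0.094).

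Nearer the membrane, Ndufs7 lines the pocket where ubiquinone is reduced, Ndufs3 is a structural subunit of this module, and Ndufs8 holds iron-sulfur clusters on the way to it. Ndufs7, which carries the last cluster of the path, had 50.1 CPM in HFD and 90.3 CPM in chow (-1.05). These intervals lie far apart, at 48.2 to 52.1 CPM for Ndufs7 in HFD and 88.1 to 92.6 CPM in chow. Ndufs3 had 38.5 CPM in HFD and 70.2 CPM in chow (-1.06), and Ndufs8 had 33.9 CPM in HFD and 62.4 CPM in chow (-1.08). These 3 core subunits lay between -1.08 and -1.05.

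Among 9 accessory subunits of the matrix arm, 5 were at or below -0.5 and the median was -0.57. Ndufs4, which holds the NADH-oxidising part in place and is mutated in Leigh syndrome, had 35.1 CPM in HFD and 58.3 CPM in chow and was the lowest of them (-0.93). Ndufa12, which takes the place that Ndufaf2 holds during assembly, had 75.4 CPM in HFD and 109 CPM in chow (-0.73). Ndufa9, a subunit with a dehydrogenase-like fold that binds NADPH, was the highest, at 20.4 CPM in HFD and 18.6 CPM in chow (-0.063). Ndufa2 (-0.45), Ndufa6 (-0.43) and Ndufa7 (-0.32) stood above the -0.5 line, while Ndufa5 (-0.63), Ndufv3 (-0.60) and Ndufs6 (-0.57) were past it. The range within the matrix arm, core included, ran from -1.08 to -0.048.

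Of the 9 accessory subunits of the proximal membrane arm, next to the matrix arm, 5 were at or below -0.5 (median -0.64), and this group had the widest spread. Ndufc2, a small membrane subunit, had 105 CPM in HFD beta cells and 210.5 CPM in chow beta cells (-1.21). Ndufa8, built with paired cysteine motifs of the intermembrane space, had 45.1 CPM in HFD and 85.0 CPM in chow (-1.11). Both stood near one another at the low end.

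Ndufa3, another small membrane subunit, stood at the other end with 122 CPM (119 to 125) in HFD and 108 CPM (105 to 110.2) in chow, a relative ratio of -0.015. Ndufa10, which resembles a nucleoside kinase, had 41.2 CPM in HFD and 38.9 CPM in chow (-0.11). Ndufa11, related to mitochondrial import proteins, had 163 CPM in HFD and 279 CPM in chow (-0.98), with the reservation that an annotated pseudogene copy may share its reads. The remaining 4 were Ndufs5 (-0.66), Ndufa13 (-0.64), Ndufc1 (-0.45) and Ndufa1 (-0.27).

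All 10 measured accessory subunits of the distal membrane arm, the pumping end of the enzyme, were at or below -0.5, with a median of -0.91. Ndufb6 was the lowest of all members, with 41.7 CPM (39.9 to 43.5) in HFD beta cells and 85.1 CPM (82.9 to 87.3) in chow beta cells (-1.23). Ndufb10 had 80.4 CPM in HFD and 143 CPM in chow (-1.02). Ndufb11, the highest of the group, had 206 CPM in HFD and 280.2 CPM in chow and still lay at -0.64. The other 7 lay between -0.96 (Ndufb4) and -0.72 (Ndufb2), and none of these 10 had overlapping CPM intervals. Ndufb1 was not analysed here.

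Ndufab1, the mitochondrial acyl carrier protein that also serves fatty acid and lipoic acid synthesis, had 73.4 CPM in HFD beta cells and 127 CPM in chow beta cells (-0.99). Ndufa4 had 209 CPM in HFD and 308 CPM in chow (-0.75). Ndufa4l2, its relative known as a target of hypoxia signalling, was barely detected, with 35 UMIs over all HFD beta cells and 66 over all chow beta cells. Annotated processed pseudogenes resemble Ndufa11, Ndufab1, Ndufb4 and Ndufs6, so the counts of these 4 are uncertain to the extent that reads were shared.

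Assembly factors also lay lower in HFD beta cells, but by less than subunits. Their sum was 78.4 CPM in the HFD library and 89.7 CPM in the chow library, their median relative ratio -0.42, and 3 of 7 were at or below -0.5, where 12.2% of all genes were. All 7 lay below 0, as did 50% of all genes, but Ndufaf4 and Ndufaf5 lie above 0 under plain CPM, without hormone UMIs, or relative to genes of at least 50 CPM. The difference of medians, subunits minus assembly factors, was -0.37 in beta cells, 0.11 in alpha cells, 0.064 in delta cells and 0.042 in PP cells. These are descriptions of 1 library per diet and were not tested. All 7 assembly factors stood at or below 37.9 CPM in beta cells of both libraries. The 6 subunits of 10 to 50 CPM had a median of -0.48, near the -0.42 of the assembly factors. These sets are not matched in level, since Ndufaf1, Ndufaf5, Ndufaf6 and Ndufaf7 lay below 10 CPM in beta cells of both libraries. The part of expression level in the difference was not tested.

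Ndufaf2, the stand-in for Ndufa12, had 10.6 CPM in HFD beta cells and 13.8 CPM in chow beta cells (-0.57). Ndufaf3, which acts with Ndufaf4 on the ubiquinone-side module, had 30.6 CPM in HFD and 37.9 CPM in chow (-0.50). Ndufaf4 itself had 15.7 CPM in HFD and 15.1 CPM in chow (-0.14), a smaller difference than that of its partner. Ndufaf1, part of the machinery that builds the proximal membrane arm, had 2.91 CPM in HFD and 3.39 CPM in chow (-0.42). Ndufaf5, a hydroxylase of Ndufs7, had 6.91 CPM in HFD and 6.38 CPM in chow (-0.082). Its CPM intervals overlapped between libraries, and so did those of Ndufaf1, Ndufaf4, Ndufaf6 and Ndufaf7.

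Ndufaf6 had 4.12 CPM in HFD beta cells and 5.12 CPM in chow beta cells (-0.51). Ndufaf7, a methyltransferase, had 7.48 CPM in HFD and 8.11 CPM in chow (-0.31). Of the assembly factors known under other names, 6 of 11 lay below 0, with a median of -0.065, and 1 was at or below -0.5, near the shares over all genes of 50% and 12.2%. The lowest was Tmem261, with 20.3 CPM in HFD and 26.2 CPM in chow (-0.57), and the highest Atp5sl, with 8.89 and 5.94 CPM (0.39). Ndufaf8, listed as 1810043H04Rik and outside the symbol rule, had 74.3 CPM in HFD and 69.8 CPM in chow (-0.11).

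In alpha cells the subunits stood near the median gene. The subunits summed to 8427 CPM in HFD alpha cells and 8333 CPM in chow alpha cells, and their median relative ratio was 0.062, with 11 below 0, where 49.9% of genes lay, and 25 above (8 to 11 below 0 under the other scalings). No subunit passed 0.5 in either direction, where 7.35% of 8927 genes were at or below -0.5 and 6.72% at or above 0.5. The lowest members were Ndufb9 (-0.29), with 226 CPM in HFD and 278 CPM in chow, Ndufa6 (-0.26) and Ndufa4 (-0.24). The highest subunits were Ndufa3 (0.33), with 173 CPM in HFD and 139 CPM in chow, and Ndufa12 (0.30), with 150 and 123 CPM.

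The 7 assembly factors had a median of -0.045 in alpha cells. Ndufaf1 stood highest at 0.50, on 24 HFD and 26 chow UMIs, and its interval of -0.36 to 1.36 includes 0. Subunit medians were -0.79 in beta and 0.062 in alpha cells of the same libraries. 9 subunits lay below 0 in beta and above 0 in alpha cells with both intervals clear of 0 and a ratio past 0.5 in one of them, where 2.15% of 8853 genes measured in both types did, and 5.39% of the 1243 of these with 50 CPM or more in beta cells. Ndufb6, the lowest member in beta cells, had 188 CPM in HFD alpha cells and 162 CPM in chow alpha cells (0.23).

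Delta and PP cells stood between. In delta cells the subunits summed to 8726 CPM in HFD and 9042 CPM in chow, with a median of -0.12 and 31 of 36 below 0 (26 under plain CPM), as were 63.3% of genes of at least 50 CPM. None passed 0.5 in either direction, where 4.45% of 8633 genes were at or below -0.5 and 7.26% at or above 0.5. Ndufc2, with 317 CPM in HFD and 396 CPM in chow (-0.40), and Ndufs3, with 139 and 170.1 CPM (-0.37), were the lowest subunits. Of the assembly factors, whose median was -0.19, Ndufaf6 stood lowest at -0.84 on 30 HFD and 51 chow UMIs, and Ndufaf5 highest at 0.45 on 54 and 37 UMIs. Ndufa3 (0.25) and Ndufa5 (0.081) were the highest subunits.

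In PP cells the subunits summed to 4849 CPM in HFD and 4996 CPM in chow, with a median of -0.18 and 32 of 36 below 0 (26 under plain CPM), as were 64.7% of genes of at least 50 CPM. None passed 0.5 in either direction, where 7.49% of 5661 genes were at or below -0.5 and 11.5% at or above 0.5. Ndufb6, with 83.7 CPM in HFD and 105 CPM in chow (-0.41), was among the lowest subunits. Only 4 assembly factors reached 50 summed UMIs, with a median of -0.23, Ndufaf2 lowest (-0.48) and Ndufaf4 highest (0.17). Ndufa3 (0.29) was the highest subunit here too, as it was in the other 3 types, and Ndufa7 followed at 0.15. Ndufa4l2 had at most 3 UMIs per library in alpha, delta and PP cells and got no ratio there.

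**Figure D2:**
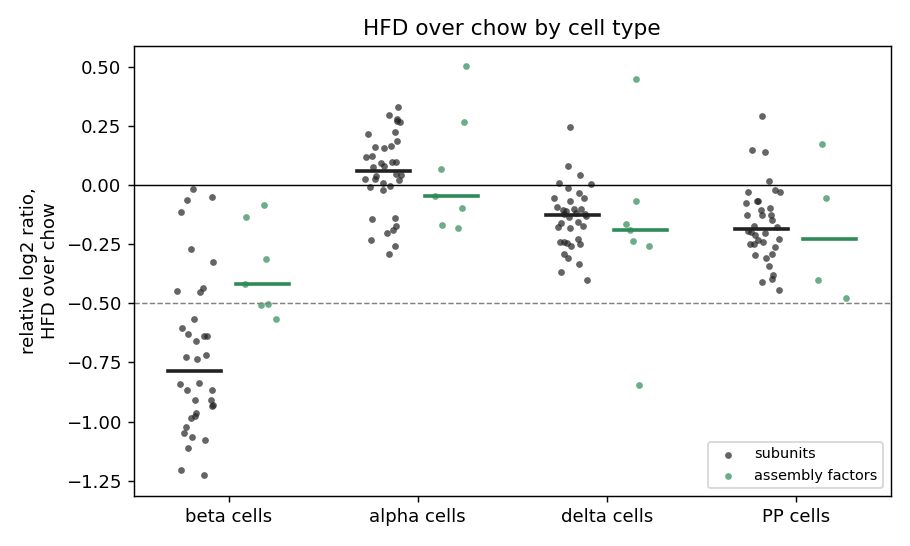
Relative log2 ratio of HFD over chow (vertical axis) of the subunits and of the assembly factors in beta, alpha, delta and PP cells, 1 point per gene with the median as a line and a dashed line at -0.5. Subunit medians were -0.79 in beta, 0.062 in alpha, -0.12 in delta and -0.18 in PP cells.

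Because 7 hormone genes together took 60.2% of the UMIs of HFD beta cells and 60.8% of those of chow beta cells, levels were also set against UMIs of other genes. Subunits made up 9906 (9862 to 9950) per 1000000 non-hormone UMIs in HFD beta cells and 14000 (13955 to 14045) in chow beta cells. In alpha cells they made up 12213 in HFD and 11719 in chow, in delta cells 12437 and 13500, and in PP cells 10654 and 11758. In the HFD library beta cells had the lowest level of the 4 types and delta and alpha cells the highest, with overlapping intervals. In the chow library beta cells had the highest level, followed by delta cells, and PP and alpha cells overlapped at the low end. Assembly factors made up 197 per 1000000 in HFD beta cells and 229 in chow beta cells.

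The distribution over single beta cells lay lower in the HFD library as a whole. Each cell was thinned to 2000 non-hormone UMIs, which left out 28 HFD and 83 chow beta cells as too shallow. The median beta cell then had 18 subunit UMIs in the HFD library (middle 50% of cells 14 to 23) and 27 in the chow library (21 to 32). The 90th percentile of HFD beta cells, 28 UMIs, lay near the chow median. Without thinning the median was 9.25 per 1000 non-hormone UMIs in HFD and 13.6 in chow. Alpha cells had medians of 24 in HFD (20 to 29) and 23 in chow (19 to 27), delta cells 25 and 27, and PP cells 21 and 23.

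**Figure D3:**
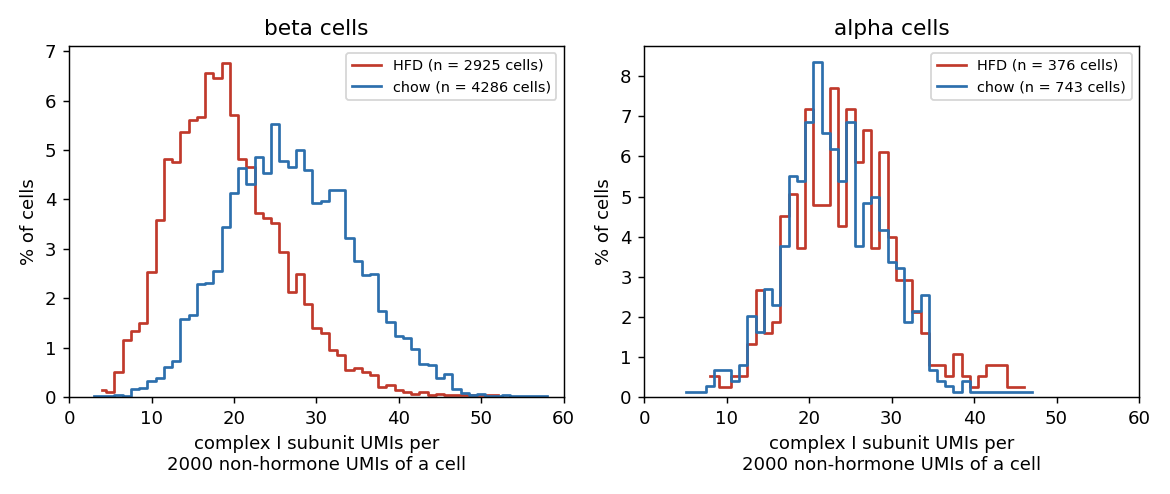
Share of cells (vertical axis, %) by the number of complex I subunit UMIs among 2000 non-hormone UMIs of a cell (horizontal axis), for beta cells at left and alpha cells at right. The HFD beta cells centre on 18 and the chow beta cells on 27, while HFD and chow alpha cells lie over each other at 24 and 23.

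Beta cells of the HFD and chow libraries were spread unequally over clusters, and the clusters differed in subunit level. Clustering of the beta cells without the members and other respiratory chain genes gave 15 clusters, of which 6 had at least 100 cells in each library. These 6 held 79.3% of HFD and 58.1% of chow beta cells. A cluster led by Lcn2, Fkbp11 and Crybb3 held 0.745% of HFD and 19.4% of chow beta cells, and one led by the heat shock genes Hspa1b and Hspa1a held 0.610% and 18.4%. Those had the highest subunit levels of the chow library, 16281 and 15781 per 1000000 non-hormone UMIs. A cluster led by Tmod1, Abhd2 and Mlxipl held 31.2% of HFD and 5.95% of chow beta cells, at 8931 per 1000000 in HFD and 10081 in chow. A cluster led by Serpina3n held 15.8% of HFD and 1.53% of chow beta cells, at 9198 and 9936. A cluster filled mostly by 1 library cannot be told apart from that library.

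Within the shared clusters the subunits were lower in the HFD library by less. Their median relative ratios were -0.45, -0.41, -0.35, -0.29, -0.15 and -0.11 in the clusters led by Acvr1c, Pyy, Th, Trib3, Tmod1 and Cib3, in that order. At or below -0.5 were 12 of 36 subunits in the Acvr1c cluster (8.08% of its genes), 15 in the Pyy cluster (9.26%), 10 in the Th cluster (8.26%), 11 in the Trib3 cluster (5.61%), 1 in the Tmod1 cluster (5.82%) and 0 in the Cib3 cluster (4.69%). Below 0 in all 6 clusters were 22 of 36 subunits, where 11.2% of 6783 genes were. These shares are over all genes, and shares for genes of like expression level are not given for the clusters. Assembly factors, of which 5 to 7 could be measured per cluster, had medians of -0.44, -0.23, 0.093, 0.0057, 0.35 and 0.19 in the same order of clusters. In the Acvr1c cluster they stood nearly as low as the subunits, and in the other 5 the subunit median was the lower one. Over the median of the clusters the subunits stood at -0.32 and the assembly factors at 0.072, a value that is Ndufaf1's own, measured in 1 cluster.

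5 subunits had a median over the clusters at or below -0.5, and the share of all genes that did is not given here. Ndufb6 stood at -0.70 (from -0.98 to -0.15 in the 6 clusters), Ndufb10 at -0.65, Ndufa11 at -0.64, Ndufs8 at -0.62 and Ndufs7 at -0.52. Ndufs1 (0.031), Ndufa9 (0.037), Ndufa10 (0.012), Ndufa1 (0.030) and Ndufa3 (0.092) stood just above 0. Median depth differed between libraries within clusters, for example 15816 UMIs per HFD cell and 7203 per chow cell in the Tmod1 cluster, and its part in these values was not tested.

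**Figure D4:**
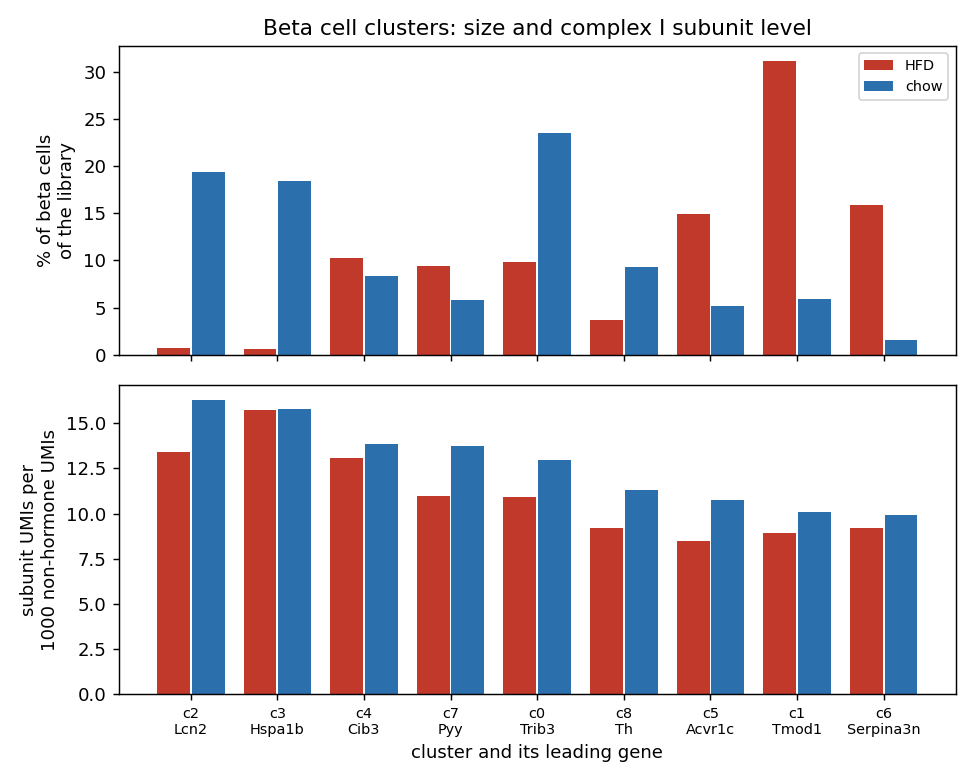
Share of the beta cells of each library (top, %) and complex I subunit UMIs per 1000 non-hormone UMIs (bottom) in the 9 largest beta cell clusters, named by their leading gene, HFD in red and chow in blue. The clusters led by Lcn2 and Hspa1b, with 19.4% and 18.4% of chow beta cells, have the highest chow bars below, and in each of the 9 the HFD bar below is the lower one, by little in the Hspa1b cluster. The HFD bars of the Lcn2 and Hspa1b clusters rest on 22 and 18 cells, and the chow bar of the Serpina3n cluster on 67.

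Beta and alpha cells of the same library were then compared, which needs no comparison between libraries. In the HFD library the subunits had a median ratio of beta over alpha of -0.82 relative to all genes, with 36 of 36 below 0 and 27 at or below -0.5, where 25.6% of 11486 genes were. In the chow library the median was -0.059, with 21 below 0, 1 at or below -0.5 (20.2% of 11716 genes) and 3 at or above 0.5 (23.2%). That chow median was 0.22 without hormone UMIs, 0.021 with TMM factors and -0.64 under plain CPM, and 9 of 14 alternatives lay below 0. The HFD median lay between -1.23 and -0.44 under its 14 alternatives. These ratios share the beta cell sums with the comparison of diets and are no separate support for it.

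Ndufa6, a small matrix arm subunit, was the only member past 0.5 in one direction in both libraries, where 14.1% of genes were at or below -0.5 in both and 17.3% at or above 0.5. It had 211 CPM in HFD beta cells and 531 CPM in HFD alpha cells (-0.92), and 248 CPM in chow beta cells and 641 CPM in chow alpha cells (-0.79). Among the subunits above 0.5 in the chow library were Ndufc2, at -0.56 in the HFD library and 0.62 in the chow library, and Ndufa11, at -0.47 in HFD and 0.57 in chow. Assembly factors had medians of -0.50 in the HFD library and -0.13 in the chow library. Against delta cells, beta cells had subunit medians of -0.58 in HFD and -0.22 in chow, and the same assembly factor median of -0.68 in both.

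**Figure D5:**
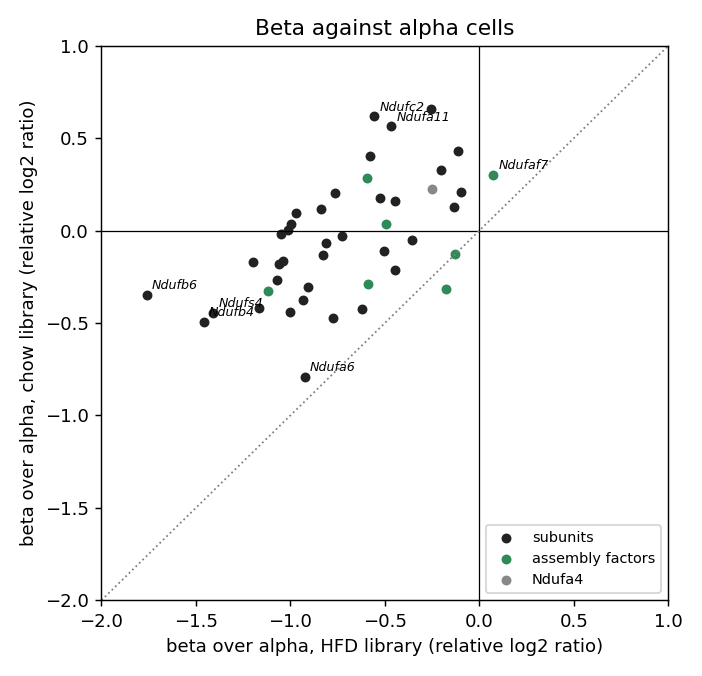
Relative log2 ratio of beta over alpha cells in the HFD library (horizontal axis) and in the chow library (vertical axis), 1 point per member, with the dotted line where both are equal. All subunits lie left of 0 on the HFD axis, and on the chow axis 21 lie below 0 and 15 above.

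The other genes of the respiratory chain were counted in beta cells in the same way, against the same 12.2% of all genes. Many nuclear genes of complexes III to V stood above 100 CPM, where the share is higher. It was 36.3% of genes of 100 to 200 CPM and 39.6% of genes of 200 to 500 CPM. The 7 subunits of complex I encoded in mitochondrial DNA were not lower as a group: 2 lay below and 5 above 0, with a median of 0.076, between mt-Nd1 (2876 CPM in HFD and 3066 CPM in chow, -0.29) and mt-Nd4l (72.6 and 39.7 CPM, 0.67), whose gene overlaps mt-Nd4. Mitochondrial transcripts took a median of 3.30% of the UMIs of HFD beta cells and 3.10% of those of chow beta cells. Complex II, which is wholly nuclear, had a median of -0.28 with 1 of 4 genes at or below -0.5, between Sdhb (-0.65) and Sdha (-0.073).

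Nuclear genes of complex III had a median of -0.64 (6 of 9 at or below -0.5, between Uqcrb at -1.11 and Uqcrfs1 at -0.22). Those of complex IV had -0.52 (7 of 13, between Cox6a2 at -2.08 and Cox7a1 at 0.48), and those of complex V, the ATP synthase, -0.65 (12 of 15, between Atp5g1 at -1.11 and Atp5k at -0.13). The complex I subunits had the lowest median of these lists, and differences between lists were not tested. Genes of mitochondrial import and the outer membrane had -0.48 (3 of 13, between Hspe1 at -0.71 and Timm44 at 0.044). In alpha cells the medians of these lists lay between -0.11 and 0.29.

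Regulators of respiratory genes had a median of -0.0077 in beta cells, with 5 of 9 measured below 0, where 50% of all genes were. Of the 9, 2 were at or above 0.5 (Ppargc1a and, at 0.58, Tfb2m), where 6.13% of all genes were. Tfam, the packaging and transcription factor of mitochondrial DNA, was the lowest, with 14.2 CPM in HFD and 14.3 CPM in chow (-0.21). Ppargc1a, a coactivator of mitochondrial biogenesis, was the highest, with 2.93 CPM in HFD and 0.952 CPM in chow (1.42), on 145 and 64 UMIs. Nrf1 had 11.1 CPM in HFD and 10.1 CPM in chow (-0.054). Among subunits with a promoter window, the 7 with an NRF1-type match had a median ratio of -0.66 in beta cells and the 25 without one -0.84. Medians with and without a match were -0.57 and -0.84 for the YY1-type letters, -0.68 and -0.84 for CCAAT, and -0.60 and -0.79 for TATAAA. For CCGGAAG the order was the other way, at -1.07 with a match (4 subunits) and -0.72 without. These differences were not tested.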

How the data were processed

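Per the labels, islet cells were profiled with droplet single-cell chemistry, and the deposited matrices hold raw UMI counts per gene and barcode, made by the authors. Per the submitters' processing notes, Cell Ranger 2.1.0 was used. Genome build, annotation and cell calling: not given in the sources used here. Members and lists were chosen with earlier results of these data known.

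Barcodes with under 500 genes or over 10% mitochondrial UMIs were removed (145 HFD, 122 chow) from libraries of 68544729 HFD and 89292222 chow UMIs. Scrublet's own threshold failed, at 0.0228% of HFD and 0.0313% of chow barcodes, and the top 5% of scores were removed instead (206 HFD and 277 chow barcodes). 45 barcode sequences occur in both libraries. Beta cells up to 20% of the limit above it numbered 24 HFD and 17 chow, and PP cells 20 and 21.

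Counts were summed per type and library and given as CPM, with 95% intervals from the exact Poisson method. Ratios took 0.5 counts added per sum, on a log2 scale, relative to the median gene with at least 50 summed counts, and ratios of at least 0.5 in size were counted. No test was run, since each diet has 1 library. Beta cells were clustered with 1500 variable genes, 30 components, 15 neighbours and Leiden resolution 0.8. The relative ratios and their intervals were checked on simulated sums per type with known changes. Those sums were drawn with Poisson error alone from the chow counts, so differences between mice or libraries were not part of the check. That check did not cover typing, doublet removal, thinning, clustering or the promoter search. 1 member is not reported by itself here but remains in sums, medians and counts over the subunits. Genes named are the other core subunits, the assembly factors, Ndufa4, Ndufa4l2, the 6 lowest and 6 highest members in beta cells, the 3 lowest and 3 highest in the other types, members past 0.5 in both libraries between beta and alpha cells, and the ends of each comparison list. All others were chosen after their values were seen. Symbols were matched to RefSeq synonyms where older ones were in use. Tools were Python 3.11.15, numpy 2.4.6, scipy 1.17.1, pandas 2.3.3, scanpy 1.11.5, leidenalg 0.10.2, matplotlib 3.10.9 and R 4.3.3 with edgeR 4.0.16 for TMM factors.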

Additional observations from a re-analysis of the deposited data

Results flagged for a closer look

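9 subunits lay on opposite sides of 0 in beta and alpha cells, with both counting intervals clear of 0 and at least one ratio past 0.5, where 2.15% of 8853 genes measured in both types did the same, and 5.39% of 1243 with 50 CPM or more in beta cells. The difference between the types was not tested, since each diet has 1 library. In the distal membrane arm these were Ndufb6 (-1.23 in beta and 0.23 in alpha cells), Ndufb3 (-0.91 and 0.16), Ndufb2 (-0.72 and 0.27) and Ndufb11 (-0.64 and 0.099). In the matrix arm they were Ndufv1 (-0.84 and 0.27), Ndufa12 (-0.73 and 0.30) and Ndufa5 (-0.63 and 0.22). In the proximal membrane arm they were Ndufs5 (-0.66 and 0.13) and Ndufa13 (-0.64 and 0.097).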

How the results depend on the processing

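The subunit median in beta cells stayed below 0 under all 16 alternatives (-0.81 to -0.32), and so did the difference of subunits minus assembly factors (-0.56 to -0.24). No alternative matched subunits and assembly factors by expression level. The subunit median was -0.59 under plain CPM, -0.61 without hormone UMIs and -0.32 within shared clusters. Chosen after seeing the data, it was -0.52 relative to genes of at least 50 CPM and -0.40 with shared clusters pooled. The number of subunits at or below -0.5 was 27 mainly, 5 within shared clusters and 14 with these pooled. For the main count the share of all genes was 12.2%, and for the counts in shared clusters it is not given here. Assembly factors in beta cells (-0.42) stood at 0.072 within shared clusters, -0.22 under plain CPM, -0.24 without hormone UMIs, -0.16 thinned, -0.14 relative to genes of at least 50 CPM and -0.16 with shared clusters pooled. In alpha cells they stood at -0.24 in cells of 8000 to 20000 UMIs and at 0.215 thinned. Ndufaf6, at -0.51, lay at 0.13 within the 2 shared clusters where it was measured. Beta over alpha cells in the HFD library was -1.23 under plain CPM, -0.44 without hormone UMIs and -0.47 relative to genes of at least 50 CPM. In the chow library it was -0.64 under plain CPM, 0.22 without hormone UMIs and -0.24 in cells of 8000 to 20000 UMIs. Delta subunits stood at -0.049 under plain CPM, -0.054 relative to genes of at least 50 CPM and -0.079 with a minimum count of 200. PP subunits stood at -0.25 with median of ratios and with no minimum count, -0.097 under plain CPM, -0.088 with a minimum count of 200 and -0.089 relative to genes of at least 50 CPM. The cause of these moves was not tested. Of 320 values of 20 single members, 223 stayed within the member's counting interval. 33 values, of 9 members, had the other sign than the main value, all of them of members nearer to 0 than -0.5 except that of Ndufaf6. No paired analysis was possible because each diet has 1 library and the groups share fewer than 2 replicate numbers. At this depth 4 of 7 assembly factors could be measured in PP cells.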

Other observations

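Cells that met no hormone rule, 332 in the HFD library and 354 in the chow library, had the lowest subunit level of the classes counted. Subunits made up 7890 per 1000000 non-hormone UMIs in the HFD library and 7760 in the chow library, and assembly factors 179 and 193.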
